A study of Mus musculus with 16 samples.

Results

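Notch signalling in brain tissue was examined through 10 genes of 21804 in the deposited table: the receptors Notch1, Notch3 and Notch4, the ligands Dll4, Jag1 and Jag2, and the target genes Hes1, Hey1, Hey2 and Heyl. The genes were chosen by symbol, with earlier results of these data known, and each matched 1 row. RNA came from 8 C57BL/6 mice aged 4 months, 4 of them Pdgfb ret/wt and 4 Pdgfb ret/ret, and each animal gave 1 cortex and 1 thalamus library. With the retention allele (ret), the growth factor PDGF-B lacks the stretch that keeps it at the cells releasing it, and mice with 2 copies recruit fewer pericytes, the cells that wrap capillaries. Every animal carried at least 1 copy, so no group was free of the allele. The 4 groups of 4 libraries were ret/wt cortex, ret/ret cortex, ret/wt thalamus and ret/ret thalamus. Per the labels, vessels calcify in the ret/ret thalamus, and the ret/ret thalamus pieces were the calcifications themselves, found by their fluorescence under a stereomicroscope. Genotype and the way of dissection therefore cannot be told apart in the thalamus. These pieces also enter every comparison below that uses ret/ret thalamus, including values over animals and between regions.

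Notch receptors are cut when a ligand on a neighbouring cell binds and pulls on them, and the freed inner part enters the nucleus, where it joins the DNA-binding protein RBPJ and switches on genes of the Hes and Hey families. In blood vessels Notch1 and Notch4 are known from endothelial cells, which also make the ligands Dll4, Jag1 and Jag2, while Notch3 is the receptor of mural cells, the pericytes and smooth muscle cells outside the endothelium. Heyl is best known as a target in mural cells, and Hey1 and Hey2 as targets in arterial endothelium. Notch1, Jag1, Jag2, Hes1 and Hey1 are made by other brain cells too, so whole tissue does not isolate their vascular share.

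To show what the DNA in front of these genes looks like, 5 stretches just before the transcription start are printed, from RefSeq on GRCm38.p6. They belong to Notch3 and Jag1, which were higher in thalamus than in cortex, to Hey2, whose thalamus values did not overlap between genotypes, and to 2 genes of the wider pathway, Nrarp, an inhibitor that Notch itself induces, and Lfng, a glycosyltransferase that changes how receptors respond to each ligand. Of the 10 genes, 7 had a RefSeq promoter entry here, and Hes1, Hey1 and Heyl had none. Each sequence runs 5′ to 3′ on the strand of its gene, without bases that GENCODE assigns to an exon. Capitals mark TGGGAA, the core bound by RBPJ, or its complement TTCCCA, and CACGTG, an E-box of the kind bound by Hes and Hey proteins. In Lfng the last marked run holds both motifs, which share bases.
Notch3 chr17:32166891-32167140, minus strand: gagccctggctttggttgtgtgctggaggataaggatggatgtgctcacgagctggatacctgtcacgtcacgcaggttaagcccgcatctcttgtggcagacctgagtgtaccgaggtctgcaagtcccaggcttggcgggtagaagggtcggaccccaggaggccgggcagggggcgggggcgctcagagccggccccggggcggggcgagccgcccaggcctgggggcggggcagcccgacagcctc
Jag1 chr2:137116645-137116770, minus strand: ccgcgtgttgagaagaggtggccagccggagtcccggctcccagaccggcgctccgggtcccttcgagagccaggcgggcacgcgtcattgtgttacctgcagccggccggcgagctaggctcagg
Hey2 chr10:30842802-30843033, minus strand: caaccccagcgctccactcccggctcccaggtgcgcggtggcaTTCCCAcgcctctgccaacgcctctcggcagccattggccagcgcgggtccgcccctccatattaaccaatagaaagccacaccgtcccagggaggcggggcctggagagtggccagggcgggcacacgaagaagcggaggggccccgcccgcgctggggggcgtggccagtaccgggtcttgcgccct
Nrarp chr2:25180508-25180757, plus strand: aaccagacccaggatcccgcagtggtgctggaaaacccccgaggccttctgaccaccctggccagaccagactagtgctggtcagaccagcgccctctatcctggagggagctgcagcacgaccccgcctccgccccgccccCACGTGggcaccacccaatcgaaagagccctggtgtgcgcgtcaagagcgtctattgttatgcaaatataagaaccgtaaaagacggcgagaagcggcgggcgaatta
Lfng chr5:140607091-140607319, plus strand: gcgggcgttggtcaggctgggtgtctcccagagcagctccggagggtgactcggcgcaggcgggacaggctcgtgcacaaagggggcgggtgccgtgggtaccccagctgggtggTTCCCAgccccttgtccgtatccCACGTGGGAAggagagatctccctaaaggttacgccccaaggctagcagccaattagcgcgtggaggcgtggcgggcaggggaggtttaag

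Searched on both strands, TGGGAA stood in the 250 bases before the start in 1 of the 7 genes with an entry, Hey2, and CACGTG in 0 of 7. Over all 32851 RefSeq mouse promoters, windows of the same length held TGGGAA in 21.6% and CACGTG in 6.02%. The 35 wider pathway genes with an entry had 48 promoters between them, of which 12 (25%) held TGGGAA and 4 (8.33%) held CACGTG. These matches are descriptions of short windows, and binding was not measured.

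Library totals ran from 13415391 to 29135064 counts. At these depths 3 counts, the upper limit that a count of 0 allows, equal 0.103 to 0.224 CPM (counts scaled to a common library total), a floor that covers counting error only. All 10 genes lay above that floor in every library, and the smallest count was 13, for Heyl in ret/ret cortex replicate 3. Divided by exon length, Hey1 was the most abundant of the 10, with a mean over the 4 groups of 12.4 CPM per kb. Jag2 followed at 4.20 CPM per kb and Notch1 at 2.20 CPM per kb. Hes1 stood at 2.01, Heyl at 1.42, Notch3 at 1.32 and Jag1 at 1.26 CPM per kb, and Dll4, Hey2 and Notch4 lay lowest at 1.03, 1.02 and 0.942 CPM per kb. The genes varied to different degrees. Between the lowest and the highest of the 16 libraries Hey1 spanned 1.63-fold and Hey2 2.12-fold, whereas Notch4 spanned 15.3-fold and Heyl 38.6-fold.

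**Figure D1:**
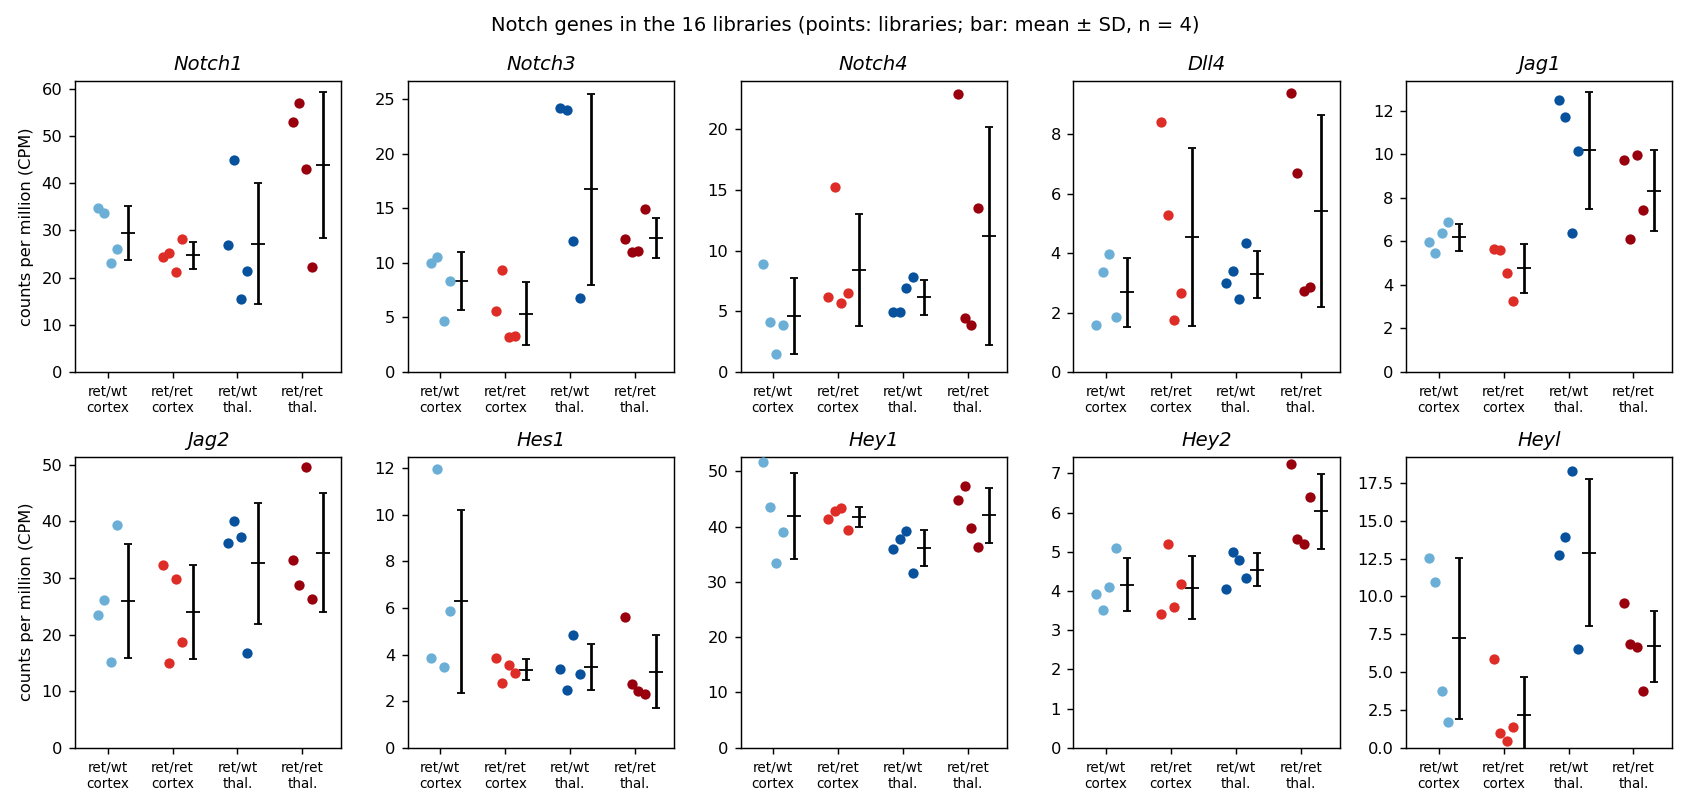
CPM of the 10 genes on the y axis in each of the 16 libraries, by group on the x axis, with the mean ± SD beside the points (n = 4; the lower SD arm of Heyl in ret/ret cortex passes below 0 and is not drawn). The means of Notch1, Notch3, Jag1, Jag2, Hey2 and Heyl are lowest in ret/ret cortex, where Heyl falls to 0.475 CPM. Hey1 stays between 31.6 and 51.6 CPM throughout.

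Libraries that stand apart touch several of these values. Cerebellar genes (Cbln1, Cbln3, Gabra6, Pcp2, Zic1 and Zic2) summed to 901 CPM in ret/wt cortex replicate 3 and 2576 CPM in replicate 2 of ret/ret cortex, and to 8.87 to 40.4 CPM in the other cortex libraries. Choroid plexus genes summed to 1126 CPM in ret/wt cortex replicate 4 and to at most 67.6 CPM elsewhere. The pericyte marker Vtn was high in ret/wt thalamus replicate 4, at 221 CPM, and in ret/ret thalamus replicate 1, at 146 CPM. Smooth muscle markers summed to 74.1 CPM in ret/wt thalamus replicate 4, against 29.8 to 38.2 CPM in the other libraries of that group. Endothelial markers summed to 537 CPM in ret/ret thalamus replicate 1, against 243 to 364 CPM in the others of that group. In ret/ret cortex replicate 1 they summed to 470 CPM, against 229 to 305 CPM. Ependymal markers summed to 81.7 CPM in ret/ret thalamus replicate 1, against 18.7 to 35.6 CPM. The part of these in the results was not tested beyond leaving the libraries out. Without the animals ret/wt 3 and ret/ret 2, which hold the cerebellar signal, no genotype call on the 10 genes was gained or lost.

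The first question was whether Notch genes differed between genotypes, and none of the 10 did at the threshold used, an adjusted p of 0.05 over all genes tested with edgeR's quasi-likelihood test. In the thalamus 0 of 10 passed, against 0 of 14767 genes in all (0%); 581 genes (3.93%) had an unadjusted p under 0.05, and DESeq2 called 38 genes, none of them of the 10. In the cortex 0 of 10 passed, against 3 of 14288 (0.021%), with 538 genes (3.77%) at an unadjusted p under 0.05 and 39 calls by DESeq2. With the counts of both regions summed per animal, 0 of 10 passed, against 2 of 15505 (0.0129%), with 795 genes (5.13%) at an unadjusted p under 0.05 and 80 calls by DESeq2. Those few genes included Edn1, which makes a vasoconstrictor peptide, and the pericyte gene Rgs5, which differed by -1.59 ± 0.16 (SE, log2 scale, ret/ret minus ret/wt). Of the 10, 6 had a higher estimate in ret/ret thalamus, 3 in ret/ret cortex and 5 over animals, beside 47.1%, 51.9% and 46.6% of all genes tested. Their median log2 fold changes were 0.19, -0.17 and 0.06, beside -0.02, 0.01 and -0.02 over all genes tested.

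Among the receptors, Notch3 in cortex read 9.97, 10.5, 4.66 and 8.31 CPM in ret/wt replicates 1 to 4 and 5.59, 9.38, 3.18 and 3.26 CPM in ret/ret. Replicate 3 of ret/wt lay among the ret/ret values, and replicate 2 of ret/ret among those of ret/wt. In thalamus Notch3 read 24.2, 24, 12 and 6.78 CPM in ret/wt and 12.1, 11, 11.1 and 14.9 CPM in ret/ret. The ret/wt thalamus libraries fell into a high and a low pair with all 4 ret/ret libraries between their extremes. The log2 fold change, ret/ret minus ret/wt, was -0.62 ± 0.41 (SE) in cortex, -0.40 ± 0.36 in thalamus and -0.53 ± 0.34 over animals. The 95% interval over animals ran from -1.28 to 0.22. In thalamus the value was -0.18 without ret/wt replicate 1, -0.18 without ret/wt replicate 2 and -0.65 without ret/wt replicate 4, and in cortex it was -1.05 without ret/ret replicate 2. Without the animals ret/wt 3 and ret/ret 2, the cortex value of Notch3 was -1.25 (unadjusted p = 0.00447, adjusted p = 0.842).

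Notch4, the endothelial receptor, had the opposite sign. In cortex it read 8.95, 4.17, 1.49 and 3.91 CPM in ret/wt and 6.17, 15.3, 5.70 and 6.51 CPM in ret/ret. In thalamus it read 4.92, 4.94, 6.94 and 7.82 CPM in ret/wt and 22.9, 4.43, 3.88 and 13.5 CPM in ret/ret. In ret/ret, replicate 2 in cortex and replicates 1 and 4 in thalamus were high, and the genotypes overlapped in both regions. Notch4 was higher in ret/ret by 0.89 ± 0.53 (SE) in cortex, 0.90 ± 0.54 in thalamus and 1.05 ± 0.34 over animals on the log2 scale. That last value had an unadjusted p of 0.0120 and an adjusted p of 0.778 with edgeR. Single libraries moved the regional values: the thalamus value was 0.26 without ret/ret replicate 1, and the cortex value was 0.43 without ret/ret replicate 2, 0.58 without ret/wt replicate 3 and 1.42 without ret/wt replicate 1. Without the animals ret/wt 3 and ret/ret 2, Notch4 differed by 0.13 in cortex and 1.23 in thalamus.

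Notch1, a receptor of endothelium and of neural and glial cells, differed in sign between the regions. In cortex it read 34.8, 33.7, 23.2 and 26.1 CPM in ret/wt and 24.3, 25.2, 21.1 and 28.1 CPM in ret/ret. In thalamus it read 27.0, 45.0, 15.4 and 21.4 CPM in ret/wt and 52.9, 57.0, 43.1 and 22.3 CPM in ret/ret, so 3 of 4 ret/ret libraries were high and replicate 4 lay with the controls. The log2 fold change was -0.24 ± 0.19 (SE) in cortex and 0.73 ± 0.36 in thalamus, or 0.38 in thalamus without the animals ret/wt 3 and ret/ret 2. Over animals it was 0.30 ± 0.25. The difference between these, the interaction of genotype and region, was 0.94 ± 0.44 with an unadjusted p of 0.0464 and an adjusted p of 1.0 in edgeR. In that test 0 of 15286 genes passed (0%), 245 (1.6%) had an unadjusted p under 0.05, DESeq2 called 4 genes, and 0 of the 10 genes passed with either. The interaction was 0.83 ± 0.57 for Hes1, 0.82 ± 0.95 for Heyl, 0.43 ± 0.33 for Hey2 and 0.23 ± 0.22 for Hey1. The other receptors and the ligands lay between -0.02 (Dll4) and 0.20 (Jag2).

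Of the ligands, Dll4, made by endothelial tip and arterial cells, had 2 high ret/ret libraries in each region. In cortex it read 1.57, 3.36, 3.96 and 1.85 CPM in ret/wt and 8.42, 5.28, 1.75 and 2.67 CPM in ret/ret. In thalamus it read 2.98, 3.38, 2.45 and 4.33 CPM in ret/wt and 9.40, 6.71, 2.72 and 2.87 CPM in ret/ret. The high values came from replicates 1 and 2 of ret/ret, the same animals in both regions, while replicates 3 and 4 lay among the controls. Dll4 differed by 0.77 ± 0.53 (SE) in cortex, 0.76 ± 0.45 in thalamus and 0.73 ± 0.43 over animals on the log2 scale. Without replicate 1 of ret/ret these values were 0.29 in cortex, 0.34 in thalamus and 0.29 over animals.

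Jag1, a ligand of endothelium, smooth muscle and glia, read 5.96, 5.48, 6.37 and 6.90 CPM in ret/wt cortex and 5.66, 5.58, 4.56 and 3.26 CPM in ret/ret cortex. In thalamus it read 12.5, 11.7, 6.40 and 10.1 CPM in ret/wt and 9.75, 6.12, 9.99 and 7.45 CPM in ret/ret. The ranges overlapped in both regions, and the log2 fold change was -0.36 ± 0.27 (SE) in cortex, -0.26 ± 0.28 in thalamus and -0.34 ± 0.22 over animals. Jag2, the third ligand, ranged from 15 to 49.7 CPM over all libraries without an order by genotype, and its log2 fold change was -0.10 ± 0.33 in cortex, 0.12 ± 0.29 in thalamus and -0.03 ± 0.21 over animals.

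Among the target genes Heyl had the most negative estimates, ret/ret minus ret/wt. In cortex it read 12.6, 11, 3.74 and 1.68 CPM in ret/wt and 5.88, 0.960, 0.475 and 1.37 CPM in ret/ret. In thalamus it read 12.7, 13.9, 18.3 and 6.53 CPM in ret/wt and 9.53, 6.88, 6.64 and 3.77 CPM in ret/ret. In cortex every ret/wt library lay above 3 of the 4 ret/ret libraries, with ret/ret replicate 1 among the controls, and in thalamus 3 of 4 ret/wt libraries lay above every ret/ret library. The log2 fold change was -1.74 ± 0.84 (SE) in cortex, -0.90 ± 0.36 in thalamus and -1.12 ± 0.44 over animals. The unadjusted p was 0.0677, 0.0313 and 0.0293 in turn, and the adjusted p with edgeR was 0.999, 1.0 and 0.917. Without ret/ret replicate 1 the cortex value was -2.95.

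Hes1, the target with the broadest use across cell types, read 3.85, 12, 3.47 and 5.86 CPM in ret/wt cortex and 3.85, 2.79, 3.54 and 3.19 CPM in ret/ret cortex. Replicate 2 of ret/wt stood well above the rest, and the log2 fold change was -0.89 ± 0.41 (SE), with an unadjusted p of 0.0566 and an adjusted p of 0.999 in edgeR. Without that library it was -0.39. Hes1 differed by -0.05 ± 0.40 in thalamus and by -0.47 ± 0.30 over animals. Hey2, an arterial target, read 4.06, 4.99, 4.78 and 4.33 CPM in ret/wt thalamus and 7.23, 5.32, 5.19 and 6.39 CPM in ret/ret thalamus. Every ret/ret library lay above every ret/wt library there, as in 1.92% of all genes tested, and the difference was 0.44 ± 0.26 with an unadjusted p of 0.116. In cortex Hey2 differed by -0.0071 ± 0.28 and over animals by 0.26 ± 0.20. Hey1 differed by 0.25 ± 0.16 in thalamus and 0.01 ± 0.17 in cortex, the narrowest errors of the 10 in both regions, and by 0.15 ± 0.12 over animals.

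**Figure D2:**
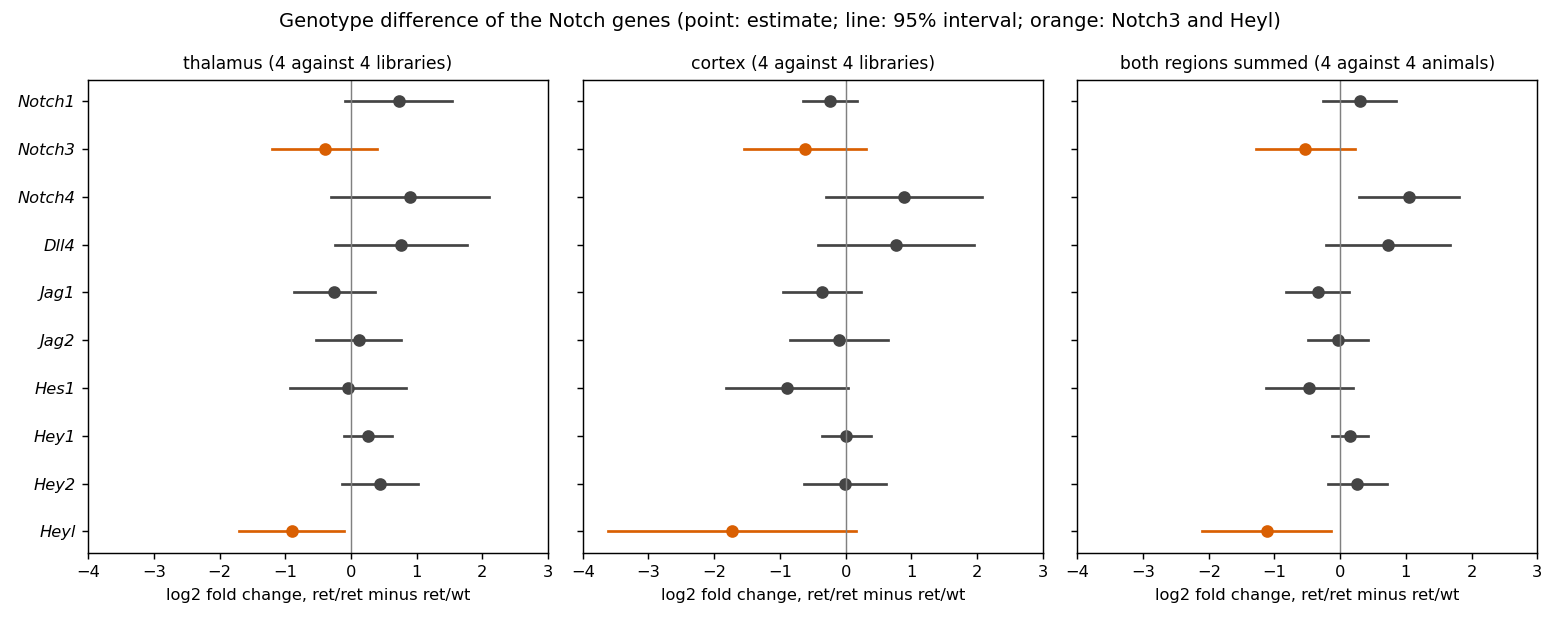
Log2 fold change, ret/ret minus ret/wt, on the x axis for the 10 genes on the y axis, in thalamus, in cortex and over animals (points are edgeR estimates, lines their 95% intervals). The points of Notch3 and Heyl, in orange, lie left of 0 in the 3 panels, as do those of Jag1 and Hes1. Those of Notch4, Dll4 and Hey1 lie right of 0, and no gene had an adjusted p under 0.05.

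Set against the other 8 genes, Notch3 and Heyl had a median log2 fold change of -0.65 in thalamus, where the other 8 had a median of 0.35. In cortex the medians were -1.18 and -0.05, and over animals -0.82 and 0.20. The other genes ranged from -0.89 (Hes1) to 0.89 (Notch4) in cortex, where Hes1 lay between Notch3 (-0.62) and Heyl (-1.74). These medians carry no test. Within single libraries the mural genes were compared with a relative by the log2 ratio of their CPM, in 4 ratios and 3 comparisons, 12 tests in all. Each value over animals is the mean of that animal's regional values, and the ratios share a numerator in pairs, so the 12 are not independent and their common sign, negative in ret/ret, is no separate support. The smallest p that the exact permutation test over 70 regroupings can give is 0.0286, and 3 of 12 tests reached it.

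Notch3 to Notch1, averaged over both regions of an animal, had a mean log2 ratio of -2.04 ± 0.23 (SD, n = 4) in ret/ret and -1.31 ± 0.27 in ret/wt, a difference of -0.73 with a two-sided exact permutation p of 0.0286 and an adjusted p of 0.114. Notch3 to Notch4 over animals differed by -1.24 and in cortex by -1.71, each with an exact permutation p of 0.0286 and an adjusted p of 0.114. The groups did not overlap in these 3 tests. A ratio does not show which of its genes differed. Notch4 had the larger log2 fold changes, 0.89 in cortex and 1.05 over animals, beside -0.62 and -0.53 for Notch3. Within a region Notch3 to Notch1 differed by -0.99 in thalamus and -0.48 in cortex, with exact permutation p of 0.114 and 0.257, and Notch3 to Notch4 in thalamus differed by -0.78 with an exact permutation p of 0.4. Heyl to Hey1 differed by -1.13 in thalamus and -1.93 in cortex, with exact permutation p of 0.0571 and 0.114, and by -1.53 over animals with an exact permutation p of 0.0571. Heyl to Hes1 differed by -0.77 in thalamus, -1.19 in cortex and -0.98 over animals, with exact permutation p of 0.0857, 0.286 and 0.114. No ratio had an adjusted p under 0.05.

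**Figure D3:**
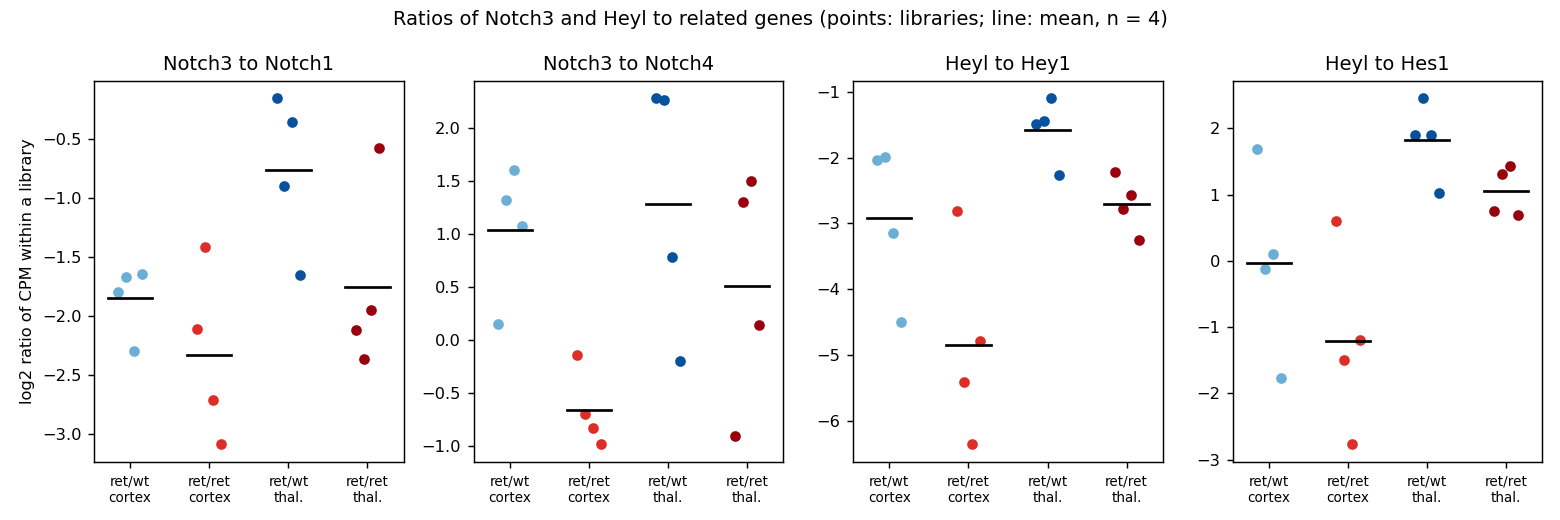
Log2 ratio of 2 Notch genes within each library on the y axis, by group on the x axis (points are libraries, lines are means, n = 4). In each panel the ret/ret mean lies below the ret/wt mean of the same region, and in cortex the 4 Notch3 to Notch4 ratios of ret/ret lie below all 4 of ret/wt.

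Genotype differences of marker genes of vessels, microglia and astrocytes are given beside these values. All 10 pericyte markers tested were lower in ret/ret thalamus, with a median log2 fold change of -0.99, and 6 of the 8 tested in cortex were, with a median of -0.94. Their summed level ran from 105 to 350 CPM in ret/wt thalamus, from 57.9 to 229 CPM in ret/ret thalamus, from 108 to 160 CPM in ret/wt cortex and from 53.1 to 117 CPM in ret/ret cortex. Without Vtn, left out after its values were seen, the other 9 summed to 82.3 to 132 and 42.6 to 82.9 CPM in ret/wt and ret/ret thalamus, and to 82.1 to 122 and 36.9 to 54.1 CPM in ret/wt and ret/ret cortex. Vascular smooth muscle markers had medians of -0.02 in thalamus, with 3 of 7 higher, and of -0.003 in cortex, with 3 of 6 higher. All 12 endothelial markers tested were higher in ret/ret thalamus, with a median of 0.49, and 10 of 12 in cortex, with a median of 0.63. Arterial endothelial markers, listed separately, were mixed. In thalamus they ran from -0.59 (Gja5) to 0.95 (Bmx), with Gja4 also below 0. In cortex they ran from -0.21 (Efnb2) to 1.47 (Bmx), with Gja5 also below 0. All 6 microglia markers were higher in ret/ret thalamus, with a median of 0.63, and their sums did not overlap there, at 257 to 316 CPM in ret/wt and 391 to 549 CPM in ret/ret. In cortex their median was 0.20 and the sums overlapped. Astrocyte markers in cortex ran from -0.08 (Slc1a2) to 1.46 (Gfap, unadjusted p = 0.0149 and adjusted p = 0.999 with edgeR). Their sums overlapped, at 6262 to 7279 CPM in ret/wt and 6933 to 8836 CPM in ret/ret cortex. In thalamus these sums were 4667 to 5869 CPM in ret/wt and 4809 to 6697 CPM in ret/ret. Of these marker genes only Rgs5 passed adjustment, in cortex and over animals. Over the 16 libraries, 2 from each of 8 animals, the mean log2 CPM of the pericyte markers had a Pearson r of 0.64 with Heyl, 0.60 with Notch3 and 0.70 with Jag1, and that of the endothelial markers had r of 0.69 with Notch4 and 0.68 with Dll4. The smooth muscle markers had r of 0.57 with Jag1, 0.53 with Notch4, 0.50 with Dll4, 0.40 with Notch3 and 0.36 with Heyl. These libraries share animals, regions and dissection, and the part of the markers in the Notch values was not tested. In bulk tissue fewer cells of a type and less RNA per cell cannot be told apart.

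The second question was how the genes differed between regions, and here Notch3, Jag1 and Heyl were higher in thalamus. In ret/ret animals the thalamus pieces were the calcifications, so region and the way of dissection cannot be told apart there. The comparison over all 8 animals includes these pieces. With the animal as a block over all 8 animals, a comparison added after the values had been seen, 3 of 10 genes passed, all higher in thalamus. The background was 29.7% of 15286 genes called, 13.7% called higher, so a count of 3 in 10 is near that of genes in general. Within ret/wt alone 0 of 10 passed against 12.6% of 14442 genes, and within ret/ret alone 0 of 10 against 9.5% of 14715, where DESeq2 called Notch1, Notch3 and Jag1. At an unadjusted p under 0.05 there were 2 of the 10 in ret/wt (27% of all genes) and 4 in ret/ret (26.7%). The estimates of the 10 ran from -0.85 (Hes1) to 1.01 (Notch3) in ret/wt and from -0.02 (Hes1) to 1.66 (Heyl) in ret/ret.

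Notch3 was higher in thalamus in 7 of 8 animals, the exception being ret/wt animal 4 (8.31 CPM in cortex and 6.78 in thalamus). By edgeR the log2 difference came to 1.11 ± 0.26 (SE) and the adjusted p to 0.00844. It was 1.01 ± 0.41 within ret/wt (adjusted p = 0.147) and 1.20 ± 0.36 within ret/ret (adjusted p = 0.0682), where every thalamus library lay above every cortex library, as in 8.26% of genes. Jag1 was higher in thalamus in 8 of 8 animals, by 0.74 ± 0.19 with an adjusted p of 0.0121, although in ret/wt animal 3 the values were 6.37 and 6.40 CPM. Heyl was higher in 8 of 8 animals, by 1.61 ± 0.41 with an adjusted p of 0.0127. Its call was lost without the block (adjusted p = 0.0613) and without the animals ret/wt 3 and ret/ret 2 (adjusted p = 0.0605). Leaving out 1 library gave single calls within a genotype. In ret/wt they were Notch3 without thalamus replicate 4 (1.26, adjusted p = 0.0445) and Jag1 without thalamus replicate 3 (0.90, adjusted p = 0.0461). In ret/ret they were Notch3 without cortex replicate 2 (1.64, adjusted p = 0.00836), Heyl without cortex replicate 1 (2.89, adjusted p = 0.0162) and Notch1 without thalamus replicate 4 (1.05, adjusted p = 0.021). In ret/ret animals 2 to 4, cortex Heyl lay at 0.475 to 1.37 CPM and thalamus Heyl at 3.77 to 6.88 CPM.

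Jag2 was higher in thalamus in 7 of 8 animals, by 0.46 ± 0.24 (adjusted p = 0.167), and it passed without ret/wt animal 4 (0.68, adjusted p = 0.00782), the animal in which it fell from 39.4 to 16.7 CPM. Notch1 was higher in thalamus in 3 of 4 ret/ret animals and 1 of 4 ret/wt animals, with a pooled difference of 0.27 ± 0.23. Hes1 was lower in thalamus in 6 of 8 animals, with a difference of -0.40 ± 0.30 (adjusted p = 0.346). Hey1 differed by -0.10 ± 0.11, Hey2 by 0.35 ± 0.19, Dll4 by 0.33 ± 0.23 and Notch4 by 0.40 ± 0.44. Markers of other cell types differed between the regions as well. All 5 oligodendrocyte markers were called higher in thalamus, with a median of 1.86, and 3 of 4 general neuron markers were called lower, with a median of -0.97. All 4 thalamus neuron markers were called higher (median 4.50) and all 4 cortex neuron markers lower (median -5.69), and of 9 astrocyte markers 3 were called higher and 2 lower, the glutamate transporters Slc1a2 and Slc1a3. Ependymal markers had a median difference of 1.35 with 3 of 5 called, pericyte markers of 0.67 with Cspg4 and Ndufa4l2 of 10 called, and smooth muscle markers of 0.51 with Cnn1 of 7 called. Their part in the Notch differences was not tested.

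**Figure D4:**
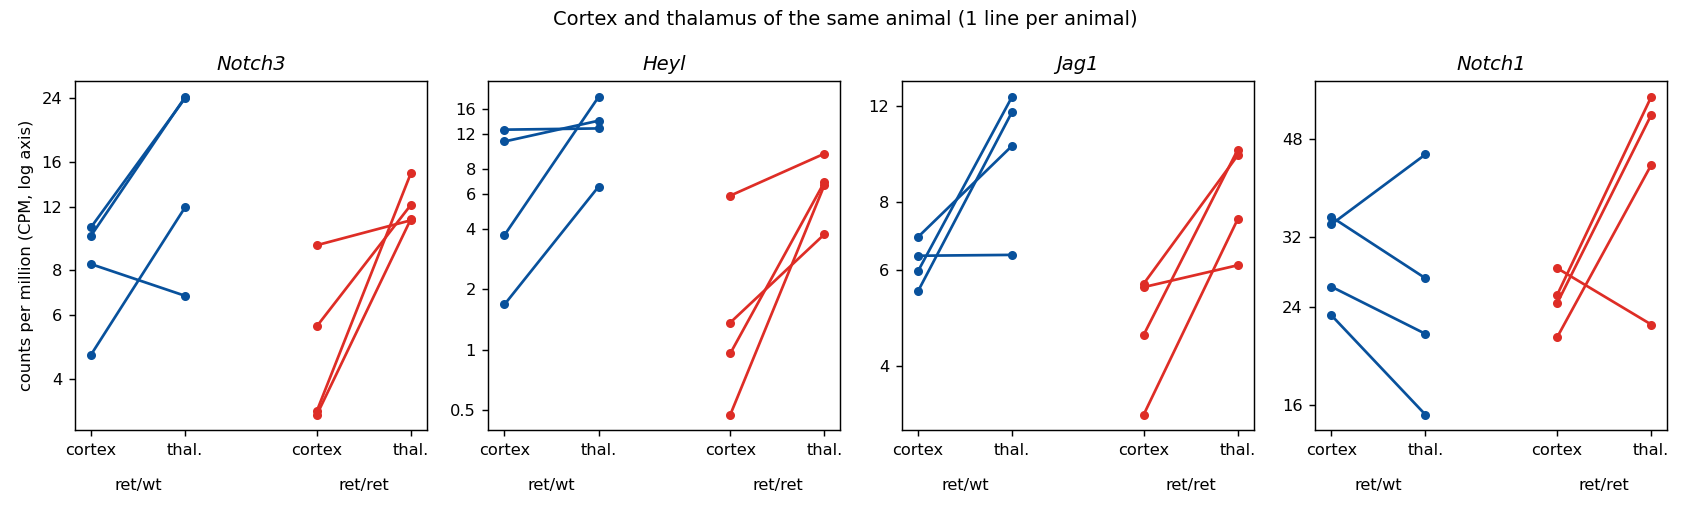
CPM on a log y axis in cortex and thalamus of each animal (1 line per animal, ret/wt in blue and ret/ret in red). The lines of Heyl and Jag1 rise or stay level in 8 of 8 animals, those of Notch3 rise in 7 of 8, and those of Notch1 rise in 3 of 4 ret/ret and 1 of 4 ret/wt animals.

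In the order of the 4 groups, Notch3 had means of 16.7 ± 8.76 CPM (SD, n = 4) in ret/wt thalamus, 12.3 ± 1.81 in ret/ret thalamus, 8.36 ± 2.64 in ret/wt cortex and 5.35 ± 2.91 in ret/ret cortex. Only the middle neighbours, ret/ret thalamus and ret/wt cortex, had ranges that did not overlap. Heyl ran from 12.9 ± 4.86 CPM in ret/wt thalamus over 7.23 ± 5.33 in ret/wt cortex and 6.71 ± 2.35 in ret/ret thalamus to 2.17 ± 2.50 in ret/ret cortex, and every pair of neighbours overlapped. Jag1 followed the order of Notch3, at 10.2 ± 2.70, 8.33 ± 1.86, 6.18 ± 0.602 and 4.77 ± 1.12 CPM, again with overlap between neighbours. Notch4 and Dll4 shared another order, highest in ret/ret thalamus (11.2 ± 8.99 and 5.42 ± 3.23 CPM), then ret/ret cortex, ret/wt thalamus and ret/wt cortex (4.63 ± 3.12 and 2.68 ± 1.16 CPM). All their neighbours overlapped.

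Across the 16 libraries, Notch3 had its highest correlations among the 10 genes with Jag1 (Pearson r of log2 CPM, 0.76) and Heyl (0.68), while Hey1 and Notch3 had r of -0.005. Among 12772 genes with a mean log2 CPM of at least 1, the closest patterns to Notch3 were those of Vangl2 (r = 0.88), Kcnj16 (0.88) and Lpin1 (0.85). Those closest to Heyl were Cfap46 (0.84), Alpl (0.83) and Oprk1 (0.79), and those closest to Jag1 were Ccdc40, Kirrel and Fbn1 (0.88, 0.88 and 0.87). Notch4 lay closest to Azin2 (0.86) and Dll4 to Plin2 (0.85). These are the top of many values over libraries that share animals and regions, and they describe these libraries.

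The wider pathway was followed through 42 further genes, of which 41 passed the filter on low counts (Hes7 did not). For genotype 0 of 41 passed in thalamus, in cortex and over animals. Nrarp had the smallest p of the list in thalamus. It read 12.8, 14.8, 13.1 and 14.8 CPM in ret/wt and 19.7, 16, 18.6 and 20.6 CPM in ret/ret, without overlap, a difference of 0.46 ± 0.18 (SE) and edgeR gave an unadjusted p of 0.0307 and an adjusted p of 1.0. In cortex Nrarp differed by -0.22 ± 0.27, and its interaction was 0.67 ± 0.31 (unadjusted p = 0.0486, adjusted p = 1.0). Aph1a, a subunit of the gamma-secretase that cuts the receptor, had the smallest p of the list in cortex (0.49 ± 0.18, unadjusted p = 0.0236, adjusted p = 0.999).

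Between regions, genes of the wider list passed in both directions. Over all 8 animals 12 of 41 passed, 3 higher and 9 lower in thalamus, and the median over the 41 was -0.09 beside 0.005 over all genes tested. Over all genes 29.7% passed, 13.7% higher and 16% lower. Higher in thalamus were Dlk1, a non-canonical ligand (3.78 ± 0.68, SE, log2 scale), Nrarp (0.75 ± 0.17) and Poglut1, which adds glucose to the receptor (0.40 ± 0.10). Dlk1 read 0.475 to 13.2 CPM in the 8 cortex and 13.9 to 52.7 CPM in the 8 thalamus libraries. Lower in thalamus were 3 of the 4 listed ubiquitin ligases that act on ligands, Neurl1b (-2.54 ± 0.50), Neurl1a (-1.69 ± 0.18) and Mib1 (-0.60 ± 0.11), while Mib2 (-0.14, adjusted p = 0.390) did not pass. Of the 9 genes listed here as inhibitors Nrarp was higher, as given above, and 3 were lower, Numbl (-1.72 ± 0.20), Fbxw7 (-1.39 ± 0.17) and Numb (-0.82 ± 0.13). The nuclear partners Maml3 (-1.0 ± 0.19) and Rbpj (-0.63 ± 0.18) and the sheddase Adam10 (-0.60 ± 0.15) were lower as well. The call on Rbpj was lost without ret/wt animal 1, 3 or 4 or ret/ret animal 3 (adjusted p from 0.0539 to 0.0775). Within ret/wt 5 of 41 passed (1 higher, 4 lower), near the share over all genes tested, 12.6%. Within ret/ret 8 of 41 passed (2 higher, 6 lower), beside 9.5% of all genes tested. Neurl1a, Numbl and Fbxw7 were lower in both, and Lfng was higher in ret/wt (0.79 ± 0.22, adjusted p = 0.0371). With the replicate block Lfng had an adjusted p of 0.0653 in ret/wt, and Maml3 one of 0.0732 in ret/ret. The call on Lfng was also lost without replicate 1, 2 or 3 of either region (adjusted p from 0.0574 to 0.104). In ret/ret the calls on Adam10, Dlk1, Fbxw7, Maml3, Neurl1a, Nrarp and Numb were each lost without thalamus replicate 1 or without cortex replicate 3 (adjusted p from 0.0512 to 0.104), and all of these but Numb also without at least 1 other library, while that on Numbl passed with each library left out in turn.

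**Figure D5:**
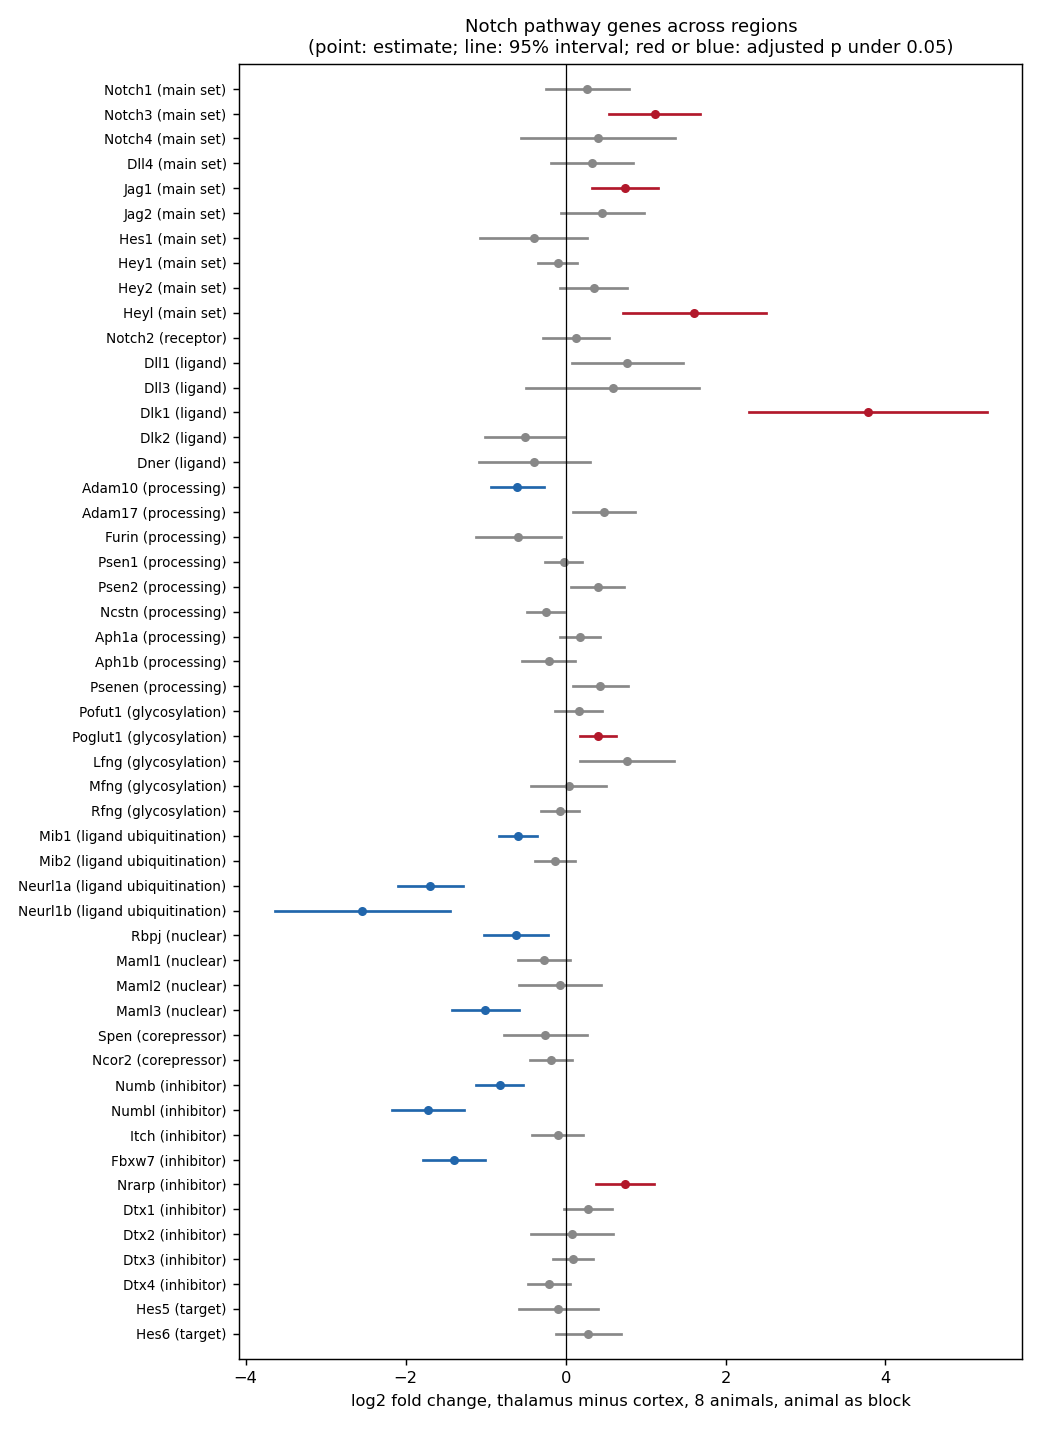
Log2 fold change, thalamus minus cortex, on the x axis with its 95% interval, for the 10 genes (main set) and 41 wider pathway genes on the y axis, labelled by role (8 animals, animal as block). Colour marks an adjusted p under 0.05: Notch3, Jag1, Heyl, Dlk1, Poglut1 and Nrarp lie higher in thalamus, and 9 genes from Adam10 to Fbxw7 lie lower.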

How the data were processed

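Stranded, polyA-selected RNA-seq libraries from 16 samples were used, grouped by the labels. The deposited values were expected counts per Ensembl gene, none of the nonzero ones whole; the submitters' processing notes name kallisto 0.44.0 and GRCm38.p6 without saying what each was used for, and they were rounded before fitting. Whether counting used strand is not given in the sources used here. Symbols, coordinates and exon lengths came from GENCODE M21 (GRCm38), which held 21612 of 21804 genes (99.1%).

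Genes passed filterByExpr (minimum count 10, minimum total 15), were scaled by TMM and tested in edgeR 4.0.16 (R 4.3.3, limma 3.58.1) by the quasi-likelihood test at the installed defaults, with Benjamini-Hochberg adjustment over all genes tested; DESeq2 1.42.0 was an alternative. Standard errors came from the F statistic. Each pair of groups was fitted on its 8 libraries, the interaction on 16, and genotype over animals on counts summed per animal. CPM of single libraries were scaled over 16 libraries, and log2 values had a prior count of 1. Ratios were tested by exact permutation. The steps were tested on simulated data. Tables and plots were made with matplotlib 3.10.9, scipy 1.17.1, numpy 2.4.6 and pandas 2.3.3 under Python 3.11.15.

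Same-numbered cortex and thalamus libraries of a genotype came from the same animal per the labels, while equal numbers across genotypes were different animals. The residual correlation was -0.06 to 0.26 per pair. The highest with a thalamus library of another animal of that genotype was -0.008 to 0.19. These ranges overlap, so the pairing rests on the labels. The labels give each animal its own letter, so genotype p-values measure the spread between animals within a group. With the animal as a block, the region p-values measure the spread of the thalamus to cortex difference across animals. The region fits within a genotype and the interaction ignored the pairing and treated both libraries of an animal as independent, except where the replicate block is named. The 10 genes and the other lists were chosen with earlier results of these data known. All 10 genes were counted in every comparison, some by range only (the interaction, and regions within a genotype); of the wider list, those that passed adjustment and the smallest p were named. Other genes named, the sequences printed and the region comparison over 8 animals were chosen after their values were seen. Myh11, Cldn5 and Erg were not analysed here.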

Additional observations from a re-analysis of the deposited data

Results flagged for a closer look

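In each of the 10 genes and 4 groups, the library farthest from the other 3 was set against the spread of the group. Of these 40 checks, made on CPM without logs, 4 stood out. Chance alone gives about 1 in 20 for normally distributed values, which these CPM were not shown to be. In ret/ret cortex, Notch4 was 15.3 CPM in replicate 2 and 5.70 to 6.51 CPM in the other 3; cerebellar genes summed to 2576 CPM in that library. In this group too, Heyl was 5.88 CPM in replicate 1 and 0.475 to 1.37 CPM in the other libraries, and the smooth muscle gene Mylk was 55.9 CPM there, against 8.24 to 9.44 CPM, while the other 6 smooth muscle markers summed to 18.9 CPM, within the 10.9 to 25.4 CPM of the others. Hes1 was 5.63 CPM in ret/ret thalamus replicate 1, against 2.31 to 2.73 CPM, and endothelial markers summed to 537 CPM there, against 243 to 364 CPM. Jag2 was 16.7 CPM in ret/wt thalamus replicate 4, against 36.2 to 40.2 CPM. The pericyte marker Vtn was 221 CPM there, against 22.4 to 61.3 CPM. The other 9 pericyte markers summed to 129 CPM, within the 82.3 to 132 CPM of the other libraries. The 6 smooth muscle markers other than Mylk summed to 66.7 CPM there, against 14.5 to 24.1 CPM. The part of these marker levels in the 4 values was not tested.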

How the results depend on the processing

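No alternative brought any of the 10 genes past the threshold for genotype or for the interaction. The number of genes called moved more. For genotype in thalamus it was 38 with DESeq2, 1 with the newer quasi-likelihood method and 3 with all 16 libraries in one fit. For genotype in cortex it was 39 with DESeq2, 7 with all 16 libraries, 0 with the replicate block and 1 without the animals ret/wt 3 and ret/ret 2 (0 to 2 leaving out 1 library). Over animals it was 80 with DESeq2, 0 with the replicate block, 0 without those 2 animals and 1 to 2 leaving out 1 animal; for the interaction DESeq2 gave 4. Between regions in ret/ret it was 2591 with DESeq2, 2564 without those animals and 627 to 2007 leaving out 1 library, with 3, 1 and 0 to 1 of the 10 genes; in ret/wt it was 1178 to 1797 with 0 to 1 of the 10. With the replicate block, which pairs the 2 libraries of an animal in these region comparisons, 1487 genes were called in ret/wt and 1177 in ret/ret. Without the block the counts were 1813 and 1398, and 0 of the 10 genes passed either way. Region counts over animals stayed within 3448 to 5649. All 12 ratios kept their sign and side under a prior count of 0.25, leaving out each replicate and leaving out the 2 animals.

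Signs turned for values near 0. For genotype in thalamus, Hes1 was 0.24 without the 2 animals, and leaving out 1 library gave -0.46 to 0.16 for Hes1 and -0.10 to 0.23 for Jag2. In cortex, Hey1 was -0.0053 with all 16 libraries and -0.10 without the 2 animals, and leaving out 1 library gave -0.10 to 0.13 for Hey1, -0.15 to 0.11 for Hey2 and -0.30 to 0.18 for Jag2. Over animals, Jag2 was 0.014 without a filter and 0.0032 without the 2 animals (-0.16 to 0.087 leaving out 1 animal). Between regions, Notch1 in ret/wt ran from -0.44 to 0.089, and in ret/ret Notch4 from -0.21 to 0.90, Dll4 from -0.14 to 0.77, Hes1 from -0.42 to 0.13 and Hey1 from -0.018 to 0.077, with -0.022 for Hey1 without the 2 animals. For the interaction, Notch4 was 0.019 with DESeq2, 0.015 with its size factors, 0.0023 without a filter and 1.10 without the 2 animals, and Dll4 was 0.066 with the newer method. Leaving out 1 library gave -0.63 to 0.47 for Notch4, -0.42 to 0.46 for Dll4, -0.069 to 0.62 for Notch3, -0.084 to 0.22 for Jag1 and -0.067 to 0.39 for Jag2. The cause was not tested. Precision was limited by 4 animals per genotype and, for Heyl in cortex, by counts as low as 13.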
